A study of Mus musculus with 4 samples.

Results

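Borkfalkia, CAG-552 and CAG-314 are bacterial genera of the class Clostridia that were rare in the stool of untreated mice and made up most of it in some mice given antibiotics. They were followed here in stool libraries of the 16S rRNA gene, a gene whose sequence tells bacteria apart. The members are all taxa of the deposited composition table that were placed in the families Borkfalkiaceae, CAG-552 and CAG-314, which came to 6 of 488 taxa. The 3 families hold 3, 1 and 2 taxa, and 240 other taxa of the table belong to the class Clostridia. Their day 4 levels after antibiotics against PBS (phosphate-buffered saline) are the values on which they were chosen, so these levels are given as a description with no test.

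All 3 families belong to the order Christensenellales, a group of gut anaerobes known mostly from sequence, named after Christensenella. The type species of Borkfalkia, Candidatus Borkfalkia ceftriaxoniphila, was described in human stool during treatment with ceftriaxone, an antibiotic of the beta-lactam class to which ampicillin also belongs. CAG-552 and CAG-314 are placeholder names for groups of bacteria first put together from metagenome sequence, and their physiology is little known. Vancomycin blocks cell wall assembly in Gram-positive bacteria and crosses the gut wall poorly, ampicillin blocks cell wall cross-linking in a broad range of bacteria, metronidazole acts on anaerobes, and neomycin acts on the ribosome mainly of aerobic bacteria.

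Wild-type C57BL6/J mice of 8 to 12 weeks, all kept on standard chow, received vancomycin, ampicillin, neomycin, metronidazole, or all 4 drugs as a mix, and control mice received PBS alone. Each dose held 2.5 mg in 100 µl of PBS with oral gavage, intraperitoneal injection or intravenous injection as the route, 2 doses on each of 3 days and a last one on day 4. Stool of day 0 and day 4 gave 198 libraries. Day 4 groups held 2 to 6 mice, with 5 oral, 5 intraperitoneal and 6 intravenous PBS mice.

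Depth was recovered from the step between values. It had a median of 23566 reads at day 4 (30 to 153407 over 91 libraries, 4 of them under 1000) and of 7289 at day 0 (2 to 41082 over 107 libraries, 24 of them under 1000). Among libraries of 1 group, 2 pairs at day 4 differed by no more than sampling noise, namely intravenous ampicillin mice 3 and 4 and intraperitoneal vancomycin mice 1 and 5. Each pair was averaged and counted as 1 sample, which left 89. Oral ampicillin mice 2 and 4, sequenced in different runs (ok122 and SB1), were also close, with a Bray-Curtis distance of 0.0398, rank 3 of 197 pairs, but differed beyond sampling noise (chi-square p = 6.8e-76) and were kept apart. The same holds for mice 3 and 4 of oral metronidazole (0.0422, rank 4, chi-square p = 2.8e-06) and of intravenous metronidazole (0.0494, rank 5, chi-square p = 2.3e-10). Run SB1 held 12 day 4 libraries and had PBS mice for the intravenous route only, so for other routes its antibiotic libraries had no PBS library of the same run. All 107 day 0 libraries were of run ok122, so within a mouse of run SB1 the day and the run cannot be told apart. Mice are named below by group and replicate number, and all levels are percent of the reads of a library. A level of this kind cannot tell more cells of a genus apart from fewer cells of other bacteria.

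A single taxon carried nearly all reads of each family. In Borkfalkiaceae this was a Borkfalkia taxon with no species name, found in 73 of 91 day 4 libraries, with a mean of 7.28% and a maximum of 93.1%. An unclassified taxon of the same family reached at most 0.527%, and UBA1259 sp900320065 was listed at 0 in all 198 libraries. CAG-552 was a single unclassified taxon, found in 58 day 4 libraries with a maximum of 36.8%. CAG-314 was mainly CAG-314 sp900551395, found in 55 day 4 libraries with a maximum of 25.9%, beside a taxon with no species name that stayed at or below 0.0425%. The table names 5 genera in the 3 families, of which 3 (Borkfalkia, unclassified CAG-552 and CAG-314) had reads in at least 20% of day 4 samples.

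Before treatment the genera were minor. Over the 107 day 0 libraries, Borkfalkia had a median of 0.157% (0 to 1.06%), CAG-552 a median of 0 (0 to 0.192%) and CAG-314 a median of 0 (0 to 0.406%). Detection followed depth. Borkfalkia had reads in 44 of 45 day 0 libraries of 10000 reads or more, in 22 of 38 of at least 1000 but under 10000 reads and in 2 of 24 below 1000 reads. CAG-552 had reads in 34, 9 and 0 libraries of the same depth classes, and CAG-314 in 32, 7 and 1. In the deep day 0 libraries the medians were 0.272% for Borkfalkia, 0.0323% for CAG-552 and 0.0198% for CAG-314, so a day 0 value of 0 in a shallow library says little.

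Groups yet to receive different drugs were compared at day 0, a contrast the choice of members did not use. None of the 45 member comparisons (3 genera, 15 antibiotic groups against PBS of the same route) passed an adjusted p of 0.05 in limma on log2(percent + 0.01), with Benjamini-Hochberg adjustment over 85 genera. The lowest adjusted p was 0.211 for Borkfalkia, 0.222 for CAG-552 and 0.260 for CAG-314, and 3 of the 45 had an unadjusted p under 0.05. Over all genera, 0.0% were called in 14 of the comparisons and 1.18% in oral metronidazole. The largest difference of Borkfalkia was in mice assigned to the intravenous mix, with 0.412% ± 0.258 against 0.0764% ± 0.135 in mice assigned to intravenous PBS (SD, n = 6 each; log2 3.46, SE 1.37, limma adjusted p = 0.239; two-sided exact permutation p = 0.0130, 0.195 after adjustment over 15 comparisons). The exact test called 0 of the 45 after adjustment, and 1 of them had an unadjusted exact p under 0.05.

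All 6 oral vancomycin mice carried Borkfalkia at 5% or more. Borkfalkia ranged from 5.13% to 45.6% with a median of 28.8% in the 6 oral vancomycin mice, against 0 to 0.231% with a median of 0.144% in the 5 oral PBS mice. Mouse 4 was the lowest and the 5 others lay at 23.7% or above, and no antibiotic mouse overlapped with PBS. The mean was 28.9% ± 14.5 (SD, n = 6) against 0.136% ± 0.0868 (n = 5), 212 times as high, and the log2 difference was 7.92 (SE 1.60). Escherichia_710834, a Gram-negative enterobacterium, held 34.0% to 68.6% and Ligilactobacillus, a lactic acid bacterium, 2.40% to 9.39% of the same 6 libraries.

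CAG-552 was uneven among the same mice. It made up 27.5% of mouse 4, the mouse with the least Borkfalkia, and lay between 0 and 0.471% in the 5 other oral vancomycin mice, against 0 to 0.0780% in oral PBS mice. The library of mouse 4 held 1151 reads, of which 317 were CAG-552 (exact Clopper-Pearson 95% interval 25.0% to 30.2%) and 59 were Borkfalkia (3.92% to 6.56%). Mice 4, 5 and 6 exceeded every PBS mouse for CAG-552 and mice 1, 2 and 3 did not, so the groups overlapped. The log2 difference of CAG-552 was 3.34 (SE 1.20), and 1.98 without mouse 4. CAG-314 was listed at 0 in 4 of the 6 oral vancomycin mice and reached 0.114%, against 0 in 4 of the 5 oral PBS mice and at most 0.0357% (log2 difference 0.52, SE 1.06, and -0.01 without mouse 5).

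**Figure D1:**
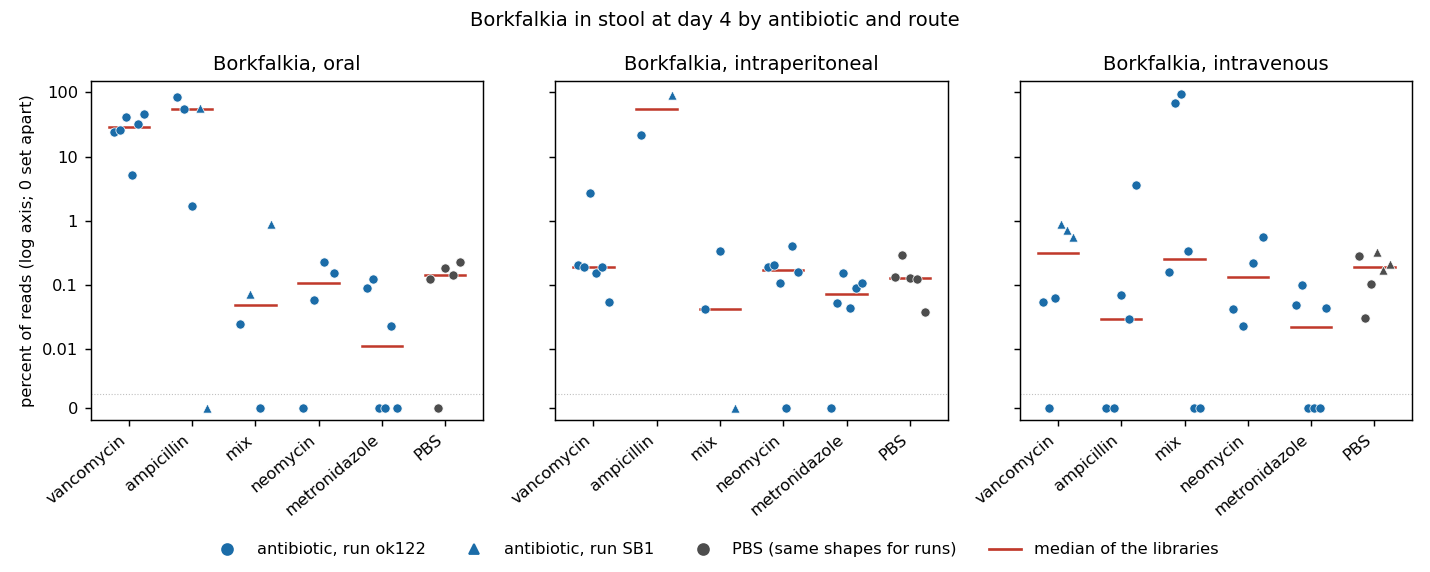
Borkfalkia in each day 4 library, as percent of reads on a log axis with values of 0 set apart below the dotted line, by drug within the oral, intraperitoneal and intravenous routes. Points are libraries (circles run ok122, triangles run SB1, blue antibiotic, grey PBS) and red lines are medians of the libraries. Values of 5% or more occur after oral vancomycin, oral ampicillin, intraperitoneal ampicillin and the intravenous mix.

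Oral ampicillin mice differed widely. Borkfalkia made up 85.2%, 55.6%, 1.67%, 56.4% and 0 of the reads in mice 1 to 5, against 0.122%, 0, 0.183%, 0.144% and 0.231% in the 5 oral PBS mice. Mice 1, 2 and 4 were high, mouse 3 was above every PBS mouse, and mouse 5 had no Borkfalkia read among 23364, which allows up to 0.0128%. The mean was 39.8% ± 37.5 against 0.136% ± 0.0868 (SD, n = 5 each), with a log2 difference of 5.76 (SE 1.67). Without mouse 5 that difference was 8.03.

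Both ampicillin mice with little or no Borkfalkia had libraries made up mostly of Burkholderia, an environmental Gram-negative genus. Burkholderia held 89.0% of mouse 3 and 96.6% of mouse 5, against 0 to 0.323% in mice 1, 2 and 4. Of the reads of mouse 3 that were not Burkholderia, 15.2% were Borkfalkia, 5.69% CAG-552 and 2.19% CAG-314. Mouse 5 had none of the 3 genera. Its limit of 0.0128% is a share of all reads and is much looser within the 3.44% of reads that were not Burkholderia. The part of Burkholderia in these low values was not tested.

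CAG-552 shared the stool with Borkfalkia in oral ampicillin mice 2 and 4. It made up 0.522%, 34.5%, 0.626%, 36.8% and 0 of the reads in mice 1 to 5, against 0, 0, 0.0224%, 0.0202% and 0.0780% in the oral PBS mice. Mice 2 and 4 stood far above the rest, mice 1 and 3 were also above every PBS mouse, and mouse 5 was not. The log2 difference was 5.78 (SE 1.25). The high pair is the oral ampicillin pair of similar libraries named above, so without mouse 4 only 1 of the remaining 4 mice had CAG-552 above 1%. CAG-314 was lower, with 1.70%, 0.539%, 0.241%, 0.706% and 0 in mice 1 to 5, against 0 in 4 oral PBS mice and 0.0357% in the other (log2 difference 4.36, SE 1.11).

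**Figure D2:**
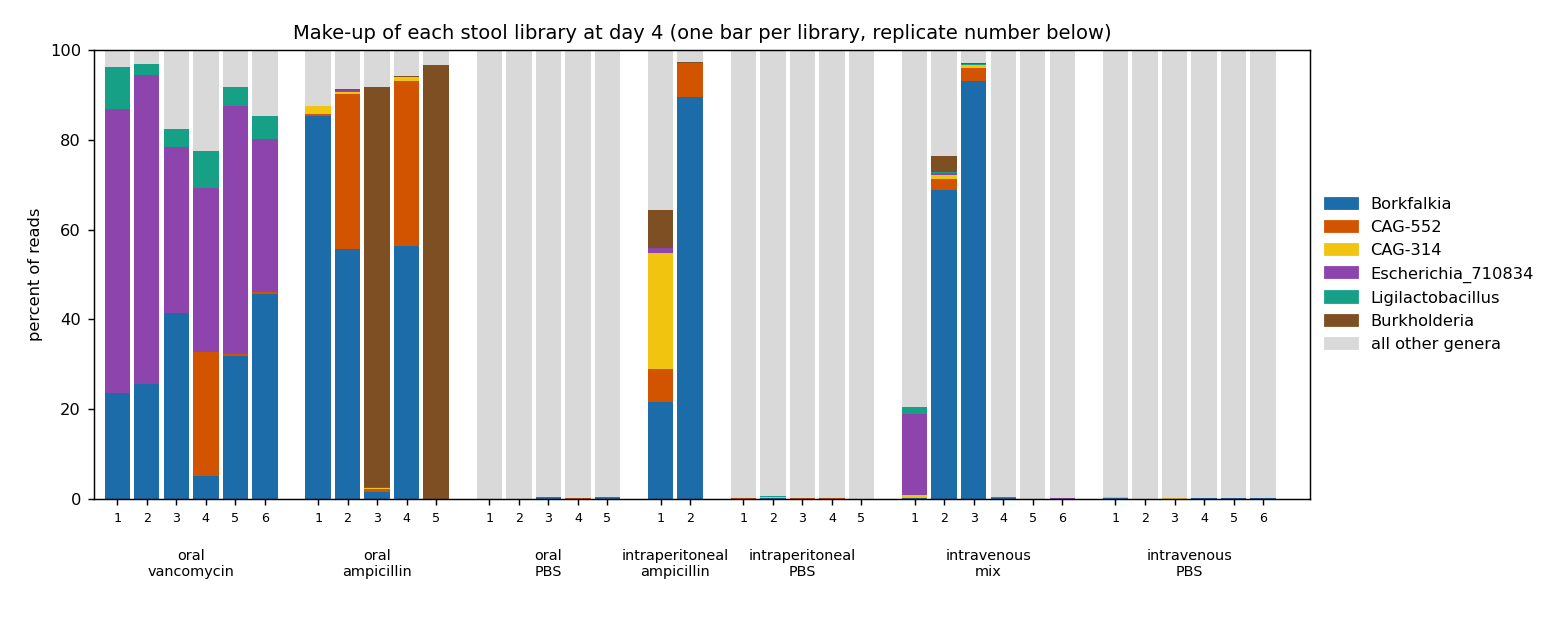
Make-up of each day 4 library of the 4 groups with a member at 5% or more and of PBS mice of the same routes, as stacked percent of reads. Each bar is 1 library with its replicate number below. Borkfalkia lies beside Escherichia_710834 in oral vancomycin mice, CAG-552 reaches 34.5% and 36.8% in oral ampicillin mice 2 and 4, and the 3 genera are hardly visible in PBS mice.

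By the intraperitoneal route ampicillin was the single drug after which any of the 3 genera reached 5%, in a group of 2 day 4 mice. Borkfalkia made up 21.7% and 89.6% of the reads, against 0.131%, 0.291%, 0.127%, 0.125% and 0.0374% in the 5 intraperitoneal PBS mice. Both antibiotic mice lay above all PBS mice, and the log2 difference was 8.41 (SE 2.21). CAG-552 was nearly the same in both, at 7.17% and 7.45%, against 0.0174% to 0.0582% in PBS mice (log2 difference 7.19, SE 1.66). CAG-314 differed most between them, at 25.9% and 0.117%, against 0 to 0.0771% in PBS mice (log2 difference 5.78, SE 1.47, and 1.95 without the first mouse or 9.62 without the second). The first mouse was sequenced in run ok122 and the second in run SB1, so the mouse and the run cannot be told apart. The value of 25.9% rested on 1436 of 5534 reads and was the one value of CAG-314 at 5% or more among the 89 samples.

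The intravenous mix divided its mice. One of them, mouse 1, was labelled intraperitoneal at day 0 and intravenous at day 4, and is counted here as intravenous. Borkfalkia ranged from 0 to 93.1% with a median of 0.250% in the 6 mice of the mix, against 0.0304% to 0.326% with a median of 0.191% in the 6 intravenous PBS mice. Mice 2 and 3 had 68.7% and 93.1%, mice 1 and 4 had 0.160% and 0.340%, and mice 5 and 6 had no read. The library of mouse 5 held 65 reads, so its 0 allows up to 4.62%, while the 27981 reads of mouse 6 allow up to 0.0107%. The mean was 27.1% ± 42.4 against 0.187% ± 0.110 (SD, n = 6 each), and the log2 difference of 1.84 (SE 1.53) was smaller than the spread within the group (SD 5.89 on the log2 scale). It was 0.47 without mouse 2, 0.38 without mouse 3, and 3.02 without mouse 5 or mouse 6. CAG-552 was at 2.49% and 2.79% in the same mice 2 and 3 and between 0 and 0.186% in the 4 others, against 0 to 0.0475% in PBS mice (log2 difference 3.23, SE 1.14). CAG-314 was highest in mice 2 and 3 as well, at 0.923% and 0.859%, followed by 0.566% in mouse 1, against 0 to 0.170% in PBS mice (log2 difference 2.77, SE 1.01).

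The mix did not give such levels by the other routes. Borkfalkia made up 0.0250%, 0.0713%, 0 and 0.903% of the 4 oral mix libraries, of which 2 carry the same replicate number and were kept as separate samples, and 0.0429%, 0.339% and 0 of the 3 intraperitoneal mix libraries. The oral mix mouse at 0.903% lay above all oral PBS mice. The other 3 oral mix libraries held 91.9%, 96.0% and 37.8% Burkholderia. Of their reads that were not Burkholderia, 0.307%, 1.77% and 0 were Borkfalkia, so on that scale the first and second also lay above all oral PBS mice, which reached 0.231%. The 0.307% of the first rests on 3 Borkfalkia reads, too few to set it apart from PBS mice. The third held 556 reads, so its 0 allows up to 0.540% of all reads, above every oral PBS mouse. The log2 difference of the oral mix from PBS was -0.47 on all reads and 1.47 with Burkholderia and Escherichia_710834 left out. The intraperitoneal library at 0 had 30 reads, of which a 0 allows up to 3. Oral mix mice had a mean Borkfalkia of 0.250% ± 0.436 (SD, n = 4) against 0.136% ± 0.0868 in oral PBS mice (n = 5).

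Vancomycin and ampicillin by injection gave smaller and less regular levels, apart from intraperitoneal ampicillin. After intraperitoneal vancomycin, 1 of 5 mice had 2.66% Borkfalkia and the others 0.0545% to 0.206%, against 0.0374% to 0.291% in PBS. After intravenous ampicillin, 1 of 4 mice had 3.59% and the others 0, 0, and 0.0700% and 0.0296% in the pair of libraries counted once, against 0.0304% to 0.326% in PBS. These 2 mice lay above all PBS mice of their route for Borkfalkia and the others of their groups did not. CAG-552 stayed at or below 0.131% in both groups. It lay above all PBS mice in 1 of 5 intraperitoneal vancomycin samples (0.124% against at most 0.0582%). The same was seen in 1 of 4 intravenous ampicillin samples (0.0504% against at most 0.0475%). CAG-314 lay above all PBS mice in 2 of 5 intraperitoneal vancomycin samples (up to 0.235% against at most 0.0771%) and in 0 of 4 intravenous ampicillin samples.

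Intravenous vancomycin differed between the sequencing runs. In run SB1 Borkfalkia was at 0.904%, 0.712% and 0.557% in 3 vancomycin mice, against 0.326%, 0.172% and 0.210% in 3 PBS mice of the same run. In run ok122 it was at 0.0552%, 0 and 0.0635% in 3 vancomycin mice, against 0.279%, 0.0304% and 0.102% in 3 PBS mice. The SB1 groups did not overlap, with vancomycin higher, and the ok122 groups overlapped. The pooled log2 difference was 0.00 (SE 1.53), that within run SB1 was 1.60 and that within run ok122 was -1.59. At day 0 the 3 SB1 vancomycin mice had 0.590%, 0.404% and 0 (of 407 reads), and the SB1 PBS mice 0 of 529, 2922 and 8604 reads. The ok122 vancomycin mice had 1.06%, 0.528% and 0 at day 0, against 0.0861%, 0.344% and 0.0282% in the ok122 PBS mice. The part of day 0 levels in the day 4 values was not tested. CAG-552 and CAG-314 reached 0.102% and 0.216% in the 6 vancomycin mice at day 4, both in run ok122.

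Neomycin and metronidazole mice held all 3 genera at low levels by every route. Over the 3 neomycin groups Borkfalkia ranged from 0 to 0.563%, and its log2 differences from PBS were -0.46 (oral), -0.08 (intraperitoneal) and -0.39 (intravenous), each smaller than its SE of 1.60 to 1.77. After metronidazole Borkfalkia was at 0 to 0.123% (oral), 0 to 0.156% (intraperitoneal) and 0 to 0.0981% (intravenous). Of 6 mice each, 3 oral and 3 intravenous metronidazole mice had no read. In both groups these include mice 3 and 4, a pair of similar libraries named above. The log2 differences were -1.85 (SE 1.60), -1.04 (SE 1.60) and -2.61 (SE 1.53), and 3 of the 6 intravenous metronidazole mice lay below every PBS mouse. CAG-314 went another way in oral neomycin mice, where it was found in all 4 at 0.00864% to 0.369%, against at most 0.0357% in oral PBS mice (log2 difference 2.67, SE 1.18).

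**Figure D3:**
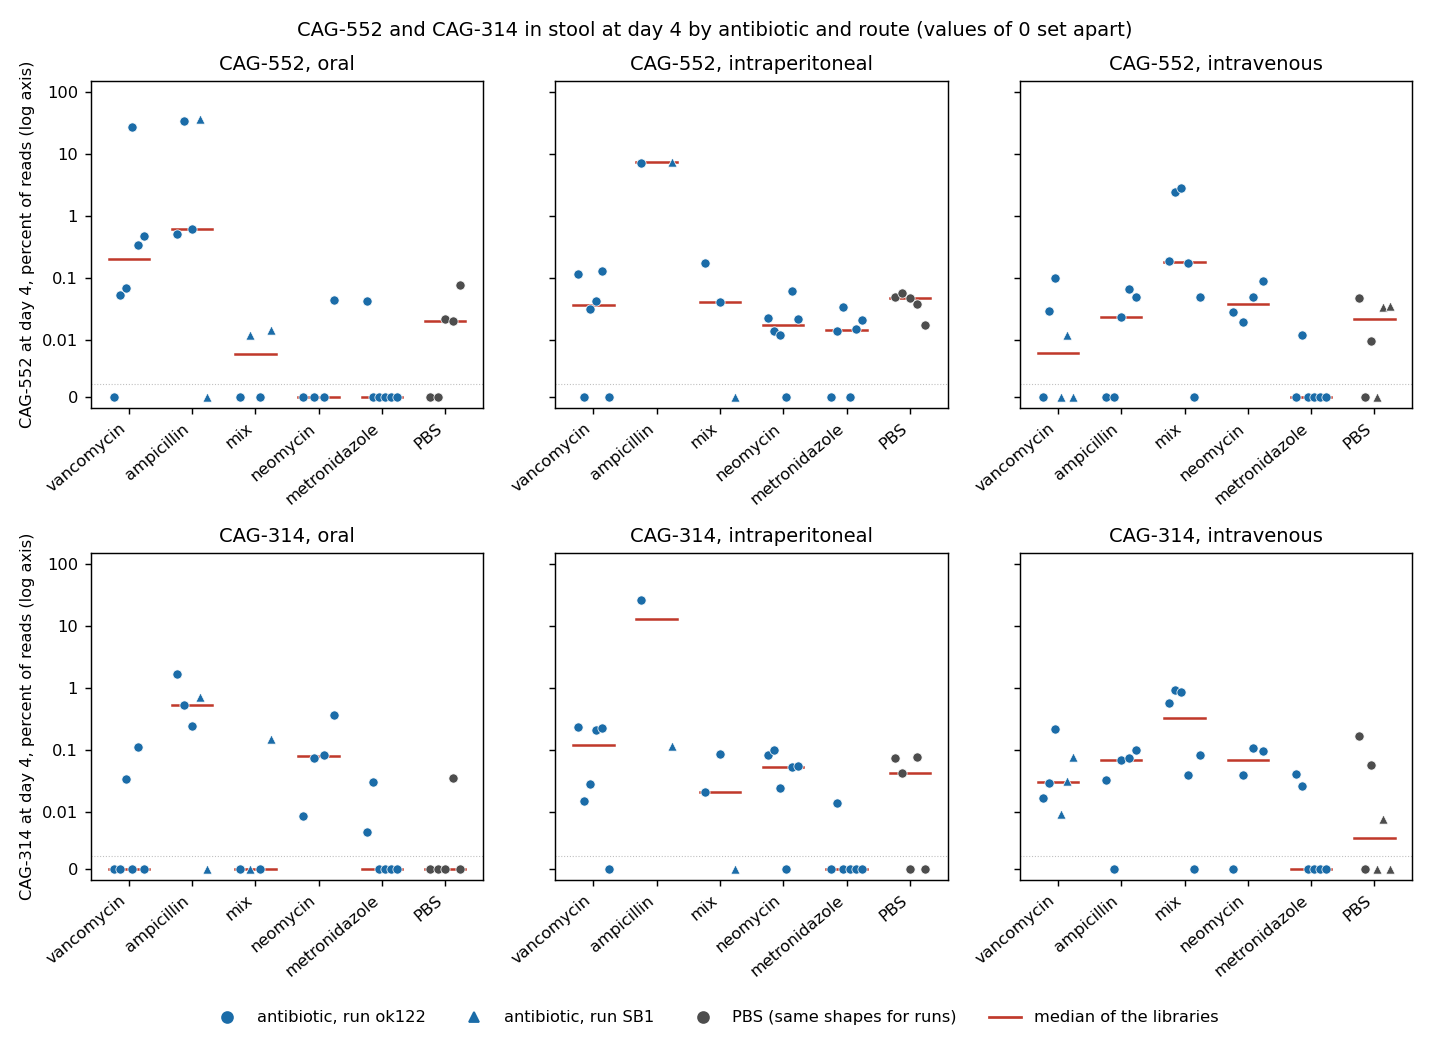
CAG-552 (upper row) and CAG-314 (lower row) in each day 4 library, as percent of reads on a log axis with values of 0 set apart, by drug within each route. Points are libraries (circles run ok122, triangles run SB1, blue antibiotic, grey PBS) and red lines are medians of the libraries. CAG-552 reaches 5% in oral vancomycin, oral ampicillin and intraperitoneal ampicillin mice, and CAG-314 in 1 intraperitoneal ampicillin mouse.

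Counted over all groups, Borkfalkia was at 5% or more in 13 of 73 antibiotic samples and in 0 of 16 PBS samples. The 13 were 6 of 6 oral vancomycin mice, 3 of 5 oral ampicillin mice, 2 of 2 intraperitoneal ampicillin mice and 2 of 6 intravenous mix mice. CAG-552 was at 5% or more in 5 samples, of which 1 was oral vancomycin, 2 were oral ampicillin and 2 were intraperitoneal ampicillin. Samples above the highest day 0 library numbered 16 for Borkfalkia, 11 for CAG-552 and 7 for CAG-314, all of antibiotic mice. Ordered by mean log2 level, Borkfalkia was highest after intraperitoneal ampicillin, then oral vancomycin, oral ampicillin and the intravenous mix, and lowest after oral and intravenous metronidazole. In none of the 3 genera did any of the 17 gaps between groups next to each other in this order exceed the larger SD of the 2 groups.

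On the 95 genera tested at day 4, limma called 7.37% higher and 58.9% lower after oral vancomycin, 6.32% and 49.5% after oral ampicillin, 7.37% and 43.2% after intraperitoneal ampicillin, and 5.26% and 37.9% after the intravenous mix. Every antibiotic mouse lay above every PBS mouse in 4.21% of these genera for oral vancomycin, 0.0% for oral ampicillin, 6.32% for intraperitoneal ampicillin and 0.0% for the intravenous mix. Borkfalkia met the latter condition after oral vancomycin, and all 3 genera did after intraperitoneal ampicillin. These shares stand beside the members' values for scale, since the members were chosen on the same contrast. The median log2 difference over the 95 genera was -1.96, -1.86, -1.90 and -1.46 in the 4 groups. On a centred log ratio, which sets each library's mean log level to 0, the medians were 0.25, -0.01, -0.04 and -0.02, and the calls divided into 22 higher and 23 lower, 13 and 13, 10 and 9, and 19 and 21, against 7 and 56, 6 and 47, 7 and 41, and 5 and 36 on percent of reads. The mean of Borkfalkia was above that of PBS in the 4 groups on both scales, by 10.12 on the centred log ratio after oral vancomycin and 10.27 after intraperitoneal ampicillin.

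Of the 155 other genera of the class Clostridia 52 were tested. Many were called lower on percent of reads, in shares somewhat above those of all 95 genera given above. These shares were 71.2% after oral vancomycin, 55.8% after oral ampicillin, 48.1% after intraperitoneal ampicillin and 44.2% after the intravenous mix, and the excess was not tested. On the centred log ratio 17.3%, 9.62%, 7.69% and 23.1% of the 52 were called lower, in the same order of groups. Of all 95 genera 24.2%, 13.7%, 9.47% and 22.1% were called lower on that scale, so the excess was seen there after the intravenous mix only. After oral vancomycin 0 were called higher and 37 lower by limma (adjusted p under 0.05), with 7 and 9 on the centred log ratio. After oral ampicillin 0 were higher and 29 lower (4 and 5), after intraperitoneal ampicillin 1 was higher and 25 lower (2 and 4), and after the intravenous mix 0 were higher and 23 lower (6 and 12). Their median log2 difference was -2.43, -2.06, -2.15 and -1.65 in the 4 groups on percent of reads and -0.23, -0.21, -0.29 and -0.22 on the centred log ratio. The other Clostridia as a sum held 0 to 0.140% of the reads in oral vancomycin mice, against 3.97% to 25.7% in oral PBS mice.

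In the 13 libraries with a member at 5% or more the 3 families held 90.2% to 100% of the reads of the class, against 0 to 5.04% with a median of 1.97% in the 16 PBS libraries. A high share did not need a high level, since it was 90% or more in 5 of the 62 other antibiotic libraries too, among them intraperitoneal vancomycin mouse 3 (98.2%) and 4 libraries with no read of another Clostridia genus. Of the 13 other genera of the order Christensenellales only unclassified Christensenellales was frequent enough to be tested. It was the 1 other Clostridia genus called higher after intraperitoneal ampicillin, with 0.874% ± 1.01 (SD, n = 2) against 0.0338% ± 0.0265 in PBS mice (n = 5; log2 3.85, SE 0.92, limma adjusted p = 0.00169). With libraries thinned to 1000 reads, or with presence in 50% of samples required, it was too rare to be tested. It was not called after oral vancomycin (log2 -1.20, adjusted p = 0.105), oral ampicillin (log2 0.43, adjusted p = 0.598) or the intravenous mix (log2 -0.80, adjusted p = 0.294).

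The ratio of Borkfalkia to CAG-552 varied widely among the libraries with a member at 5% or more. In the 12 with reads of both it had a median of 30.5 and ran from 0.186 in oral vancomycin mouse 4 to 604 in oral vancomycin mouse 3. Within oral ampicillin it was 163, 1.61 and 1.53 in mice 1, 2 and 4. It was 3.03 and 12.0 in the 2 intraperitoneal ampicillin mice and 27.6 and 33.4 in intravenous mix mice 2 and 3. Mice of 1 group thus differed widely in it, other than the pair of the intravenous mix. Across all 89 day 4 samples the levels of the genera went together, with a Spearman rho of 0.67 between Borkfalkia and CAG-552, 0.55 between Borkfalkia and CAG-314 and 0.60 between CAG-552 and CAG-314. These samples share groups and the percent scale, and the values are a description.

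Among genera outside the 3 families, those whose day 4 levels over 89 samples were most like Borkfalkia were Escherichia_710834 (Spearman rho 0.47), Pelethenecus (0.38), Burkholderia (0.34), Ligilactobacillus (0.25) and unclassified Christensenellales (0.24). For CAG-552 the same 5 genera led, with Escherichia_710834 at 0.40 and Pelethenecus at 0.39. For CAG-314 the highest was Parabacteroides_B_862066 at 0.39, followed by unclassified Clostridia_258483 and Pelethenecus at 0.29 each. Over the means of the 18 day 4 groups Escherichia_710834 stayed first for Borkfalkia (0.52), and Pelethenecus was first for CAG-552 (0.57). On that measure Escherichia_710834 was first for CAG-314 (0.35), with Parabacteroides_B_862066 at rank 5 (0.28), and Ligilactobacillus was at rank 10 for Borkfalkia (0.08). Pelethenecus, of the family Anaeroplasmataceae, held 4.84% and 4.66% of oral ampicillin mice 2 and 4 and 3.50% of mouse 1. These coefficients are low to moderate, come from libraries of unequal depth and carry no test.

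Changes within mice use the day 4 levels on which the members were chosen, so they are a description and no separate support. Many day 0 libraries were too shallow for a fold change. A mouse was therefore counted as higher where its day 4 level passed the upper bound of the day 0 level, and as lower where the upper bound of day 4 lay under the day 0 level, a rule added after the values were seen. The bound is the exact 95% limit, or 3 reads where the genus was at 0. The level of the other day is taken as it stands, without its counting error. The rule was applied to the 3 genera only, so no share over all genera stands beside the counts. Borkfalkia was higher in 6 of 6 oral vancomycin mice, 4 of 5 oral ampicillin mice and 2 of 2 intraperitoneal ampicillin mice, against 0 of 5 oral and 3 of 5 intraperitoneal PBS mice. The day 0 libraries of oral PBS mice 1, 2 and 4 held 457, 1077 and 318 reads. Their bounds of 0.656%, 0.812% and 0.943% lay above every day 4 PBS level, so these mice could hardly count as higher. Day 4 and day 0 levels were 45.6% and 0.228% in oral vancomycin mouse 6, 41.4% and 0.350% in mouse 3, and 5.13% and 0.453% in mouse 4. In oral ampicillin mice 1 and 2 they were 85.2% and 0.586%, and 55.6% and 0.363%. In oral ampicillin mouse 4, at 56.4% on day 4, Borkfalkia was not found among the 4018 reads of day 0. The remaining oral ampicillin mouse was at 0 on both days. The intraperitoneal ampicillin mouse at 89.6% had no read among 971 at day 0, which allows up to 0.309%.

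The intravenous mix mice went both ways within animals. Mice 2 and 3 had 68.7% and 93.1% at day 4, against 0.247% and 0.390% at day 0. Mouse 4 had 0.340% against 0.581%, and mice 5 and 6 had 0 against 0.163% and 0.246%. Mouse 1 was left out, since its route differs between the sheets of the 2 days. By the rule above Borkfalkia was higher in 2 and lower in 2 of these 5 mice, against 4 higher and 1 lower of 6 intravenous PBS mice. It was lower in 2 of 3 oral mix mice, at 0.0250% and 0.0713% on day 4 and 0.298% and 0.363% on day 0. But those are the libraries of 91.9% and 96.0% Burkholderia, without which the day 4 levels were 0.307% (from 3 reads) and 1.77%. In metronidazole mice it was lower in 4 of 6 oral, 4 of 6 intraperitoneal and 2 of 6 intravenous mice and higher in none of them, against lower in 1 of 5 oral, 1 of 5 intraperitoneal and 1 of 6 intravenous PBS mice.

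**Figure D4:**
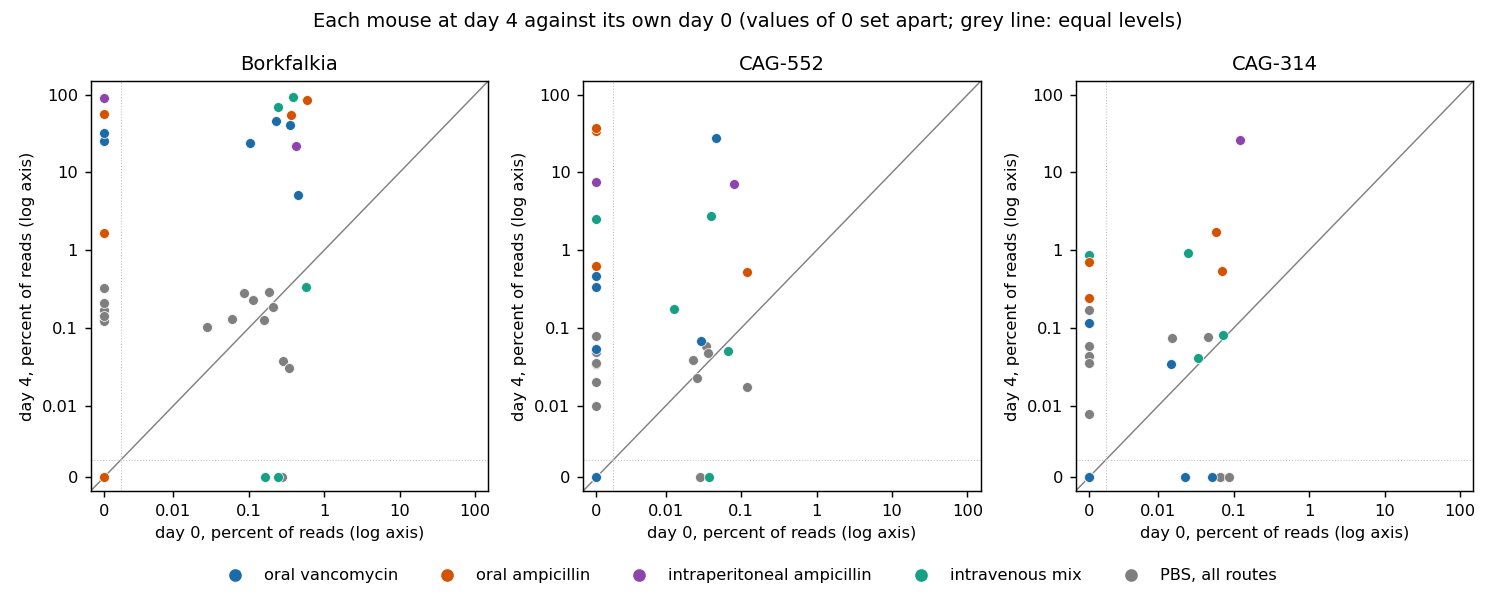
Day 4 level (vertical) against day 0 level (horizontal) of Borkfalkia, CAG-552 and CAG-314 in single mice, as percent of reads on log axes with values of 0 set apart. Each point is 1 mouse and the grey line marks equal levels. All 6 oral vancomycin mice lie above the line for Borkfalkia, while PBS mice lie on either side of it.

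CAG-552 was higher by the same rule in 2 of 6 oral vancomycin mice, 3 of 5 oral ampicillin mice, 2 of 2 intraperitoneal ampicillin mice and 3 of 5 intravenous mix mice, against 0 of 5 oral, 2 of 5 intraperitoneal and 1 of 6 intravenous PBS mice. In oral ampicillin mice 2 and 4, at 34.5% and 36.8% on day 4, it had no read on day 0 among 15724 and 4018. Oral vancomycin mouse 4 had 27.5% at day 4 and 0.0457% at day 0. CAG-314 was higher in 3 of 5 oral ampicillin mice, 0 of 6 oral vancomycin mice, 1 of 2 intraperitoneal ampicillin mice and 2 of 4 oral neomycin mice, against 0 of 5 oral and 2 of 5 intraperitoneal PBS mice. By the intravenous route it was higher in 2 of 5 mix mice and 2 of 4 ampicillin mice, against 2 of 6 PBS mice. The shallow day 0 libraries of oral PBS mice 1, 2 and 4 limit the oral PBS counts of both genera as well.

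PBS mice show how the genera vary over 4 days without a drug, a contrast the choice of members did not use. In intravenous PBS mice 4, 5 and 6, sequenced in run SB1 at day 4 and in run ok122 at day 0, day and run cannot be told apart. Of 9 tests (3 genera by 3 routes) with limma and the mouse as a block, over 99 genera, 0 passed an adjusted p of 0.05 and 1 had an unadjusted p under 0.05. Over all genera, 8.08% were called in oral PBS mice, 0.0% in intraperitoneal PBS mice and 1.01% in intravenous PBS mice. The largest member difference was Borkfalkia in intravenous PBS mice, higher at day 4 in 5 of 6 mice (log2 2.29, SE 1.11, limma adjusted p = 0.301). Its log2 change was 5.07, 4.18 and 4.46 in mice 4, 5 and 6 (run SB1 at day 4). In mice 1, 2 and 3 (run ok122 on both days) it was 1.59, -3.13 and 1.56. Mice 4, 5 and 6 had no Borkfalkia read at day 0 among 529, 2922 and 8604 reads. The size of their changes thus depends on the constant added before taking logs. The day 0 limit of mouse 4 was 0.567%, above its day 4 level of 0.326%, so a rise cannot be told there. Mice 5 and 6, at 0.172% and 0.210% on day 4, passed their day 0 limits of 0.103% and 0.0349%. The highest day 4 levels in PBS mice were 0.326% for Borkfalkia, 0.0780% for CAG-552 and 0.170% for CAG-314.

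The division of a family into its taxa was not used in choosing the members. The leading taxon held a mean of 99.6% of the Borkfalkiaceae reads in oral vancomycin mice (lowest 97.8%, n = 6), 99.99% in oral ampicillin mice (n = 4) and 100% in oral PBS mice (n = 4), among samples with at least 20 reads of the family. These shares are close to 100% and the PBS samples held only 55 to 93 family reads. The unclassified taxon of the family had reads in only 2 of 91 day 4 libraries, so 1 library sets each difference. The outcome of the test was thus nearly fixed, and it cannot decide whether the shares differ (two-sided exact permutation p = 1 in each of 3 comparisons). CAG-552 has 1 taxon, and CAG-314 had too few samples with 20 reads.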

How the data were processed

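The authors deposited a composition table, whose values are a signal that sums to 100000 in each library, and sample sheets giving antibiotic, route, day and replicate. How reads were filtered and which taxonomy named the taxa was not given in the sources used here. Per the labels' protocols, the V4 region was amplified with 30 to 35 PCR cycles and sequenced on an Illumina MiSeq. The 4 records of the series are read files of runs ok122 and SB1, not animals. Nothing says which mice shared a cage or litter, so p-values measure only the spread between these samples. Empty cells (11.6%) were read as 0, and all per-sample columns were used.

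Values were turned into percent of reads and summed by genus. All nonzero values were whole multiples of 1 step per library (within 0.02 reads or 1e-05 of the value), which gave depth; no count model was fitted. Intervals are exact (Clopper-Pearson, 95%), and a level of 0 allows up to 3 reads of the library; both cover counting error alone, as PCR copies are no independent molecules. Among day 4 libraries of at least 1000 reads, the limit at 0 ran from 0.00706% to 0.210% for Borkfalkia. Libraries of a group that differed by no more than sampling noise (chi-square p of at least 0.05) were counted once.

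Tests used limma 3.58.1 in R 4.3.3 on log2(percent + 0.01), which understates changes of rare genera, with 1 mean per group and a variance trend, over genera present in 20% of samples, with Benjamini-Hochberg adjustment and a threshold of 0.05, after a check on simulated data. Exact permutation tests used Python 3.11.15. Members were described without a test at day 4. Named taxa are all members, the 5 genera most like each by Spearman rho, tested genera of their order, and Escherichia_710834, Ligilactobacillus and Burkholderia where a share turns on them. Members and lists were chosen with earlier results of these data known. Mice were paired across days by sample name (89 of 90 with like annotation). Alternatives changed the pseudocount, scale, depth, presence filter, run, baseline, mouse block and single replicates.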

Additional observations from a re-analysis of the deposited data

Results flagged for a closer look

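Within groups of 4 to 10 samples, the highest or lowest mouse stood apart from the rest of its group (Dixon's 95% criterion on the log2 scale) in 21 of 102 cases examined. Chance flags about 1 in 20 where values are continuous, a rate that does not apply to groups with many values of 0. Many of the 21 are a single mouse with reads in a group otherwise at 0, which the criterion always flags. The part of depth in them was not tested. Numbers at day 0 are those of the day 0 sheet, and a mouse can carry another number at day 4.

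For Borkfalkia at day 4, oral vancomycin mouse 4 stood apart with 5.13% against 23.7% to 45.6% in the 5 others. Oral PBS mouse 2 and intraperitoneal neomycin mouse 4 (70 reads) stood apart with 0, against at least 0.122% and 0.109% in the rest of their groups. At day 0, mouse 1 of the later intravenous ampicillin group had 0.540% against 0 in the others. Mouse 2 of the later oral mix group and mouse 4 of the later intravenous neomycin group (549 reads) had 0 against at least 0.284% and 0.157%.

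For CAG-552 each of these mice had reads where the rest of its group had none. At day 4 they were oral neomycin mouse 4 (0.0441%), oral metronidazole mouse 1 (0.0437%) and intravenous metronidazole mouse 2 (0.0120%). At day 0 they were mouse 1 of the later oral ampicillin group (0.117%), mouse 4 of oral PBS (0.0259%), mouse 4 of intraperitoneal vancomycin (0.0265%) and mouse 4 of intraperitoneal neomycin (0.0764%).

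For CAG-314 the day 4 cases were oral mix mouse 3 (0.153%), oral metronidazole mouse 2 (0.0308%), oral PBS mouse 4 (0.0357%) and intraperitoneal metronidazole mouse 2 (0.0143%). At day 0 they were mouse 4 of the later intraperitoneal vancomycin group (0.0730%), mouse 4 of intraperitoneal ampicillin (0.119%), mouse 5 of intraperitoneal mix (0.0102%) and mouse 2 of intravenous metronidazole (0.0203%). The rest of these groups lay at 0 to 0.0143%.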

How the results depend on the processing

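Of 408 alternative values of the 45 log2 differences of members from PBS at day 4, other than those leaving out 1 mouse, 371 moved by less than 1 SD of the replicates and 37 by more. That SD is wide in uneven groups. Leaving out 1 mouse moved CAG-314 after intraperitoneal ampicillin to 1.95 or 9.62, CAG-552 after oral vancomycin to 1.98 to 4.27 and Borkfalkia after the intravenous mix to 0.38 to 3.02. On the centred log ratio Borkfalkia differed by 10.12 after oral vancomycin and 10.27 after intraperitoneal ampicillin, CAG-552 by 9.06 after intraperitoneal ampicillin and CAG-314 by 2.73 after oral vancomycin. With libraries thinned to 1000 reads, Borkfalkia differed by 10.55 after intraperitoneal ampicillin, 2.36 after intraperitoneal mix and 0.31 after intraperitoneal metronidazole. With each mouse's own day 0 as baseline, Borkfalkia differed by -4.33 (oral mix), 2.96 (intraperitoneal vancomycin), -2.23 (intravenous vancomycin) and -2.54 (intravenous neomycin). Part of these baselines are values of 0 in shallow libraries. For Borkfalkia after intravenous metronidazole a pseudocount of 0.1 gave -1.07 and one of 0.001 gave -4.26. For CAG-552 after intraperitoneal ampicillin a pseudocount of 0.1 gave 5.71. The causes of these shifts were not tested.

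Counts of other Clostridia called higher and lower moved by more than 1.5 times as follows. The centred log ratio gave 7 and 9 (oral vancomycin), 4 and 5 (oral ampicillin), 2 and 4 (intraperitoneal ampicillin) and 6 and 12 (intravenous mix). Without a presence filter 1, 6, 10 and 2 were called higher in the same 4 groups. With presence in 50% of samples, which tests fewer genera, 17 were called lower after oral vancomycin and 16 after oral ampicillin, and 0 higher after intraperitoneal ampicillin. Thinning gave 21, 15 and 7 lower in the first 3 groups and 0 higher after intraperitoneal ampicillin. A pseudocount of 0.1 gave 18 lower after oral ampicillin and 13 after intraperitoneal ampicillin, and run ok122 alone gave 18 and 4. The share of the leading Borkfalkiaceae taxon in oral vancomycin minus oral ampicillin mice ranged from -0.424 to 0.0110 percentage points when single mice were left out, positive without oral vancomycin mouse 1. No day 0 or PBS test of a member passed under any alternative (lowest adjusted p 0.0680, limma with only the compared samples). No paired analysis was possible for antibiotic against PBS because different mice make up the groups.

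A genus at 0 in a library under 1000 reads has only a loose upper limit, and groups of 2 or 3 mice leave wide errors.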
